A study of Homo sapiens with 10 samples.

Results

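The comparison set neurospheres treated with DProP against neurospheres treated with DPP at the same dose and time, across all genes. It used 4 of the 10 libraries of the series, chosen by their labels: 2 of DProP and 2 of DPP. ReNcell VM cells, which are human neural progenitors immortalised in culture, had been grown as neurospheres and were then kept for 6 days on laminin in a differentiation medium with N-2 supplement. DProP and DPP were each present at 100 µM throughout, with medium and compound renewed at intervals. DEP (diethyl phthalate) and Mix, also labelled 100 µM, and a vehicle of 0.1% DMSO had 2 libraries each. RNA of 6 neurospheres was pooled for each library, and coding transcripts were captured with an exome kit before sequencing. Whether libraries of a group stem from separate cultures is not labelled, and p-values then measure only how far these libraries differ, which may be technical. DProP commonly abbreviates di-n-propyl phthalate, but the abbreviation DPP is in use for more than 1 phthalate. The study's title describes the compounds as short-chain di-n-alkyl phthalates, which differ in the number of carbon atoms, and no structure is given here for DPP. The make-up of Mix is not given in the labels.

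Phthalate diesters are used as plasticisers and as solvents in consumer products. A differentiating neurosphere holds progenitors, immature neurons and glia, and its progenitors depend on signals from the epidermal growth factor receptor (EGFR). Ligands of that receptor activate the mitogen-activated protein kinase (MAPK) cascade, which switches on immediate early genes, among them the genes of the transcription factor AP-1. NFE2L2 (also called NRF2) is a separate transcription factor that induces antioxidant enzymes when cells meet reactive chemicals.

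Library totals ran from 57222381 to 72973100 counts over the series, and 19465 of 46427 genes entered the test. Along the principal component with the largest variance (49.4% of it), the DProP libraries lay at 13.3 and 14.6, the DPP libraries at 17.2 and 27.2, the DEP libraries at 4.28 and 2.54, and the vehicle libraries at -31.1 and -32.3. DPP library 2 thus lay farther from the vehicle libraries than the other 3. The vehicle libraries also stood apart in other measures. Mitochondrially encoded genes took 0.0825% to 0.107% of counts in treated libraries and 0.0255% and 0.0343% in vehicle libraries. The nuclear RNA MALAT1 took 0.342% to 0.394% in treated libraries and 1.25% and 0.946% in vehicle libraries. Genes with a count numbered 22905 to 23646 in treated libraries and 21603 and 21500 in vehicle libraries, and TMM factors were 1.00 to 1.04 in treated libraries and 0.917 and 0.915 in vehicle libraries. What part these differences have in any value set against vehicle was not tested. The median difference between the libraries of a group, without sign, was 0.0809 for DProP and 0.100 for DPP on the log2 scale. The line's progenitor and glial genes were abundant in all 4 libraries. SOX2, a transcription factor of neural progenitors, was at 606 and 603 CPM (counts per 1e6 counts, after TMM scaling) in DProP libraries and at 653 and 593 CPM in DPP libraries. GFAP, an intermediate filament of radial glia and astrocytes, was at 2417 and 2379 CPM in DProP libraries and at 2755 and 2314 CPM in DPP libraries. Of 12 microglial markers, 7 had no count in the 4 libraries, among them AIF1, PTPRC and TREM2. CD68, also on that list, had 7.54 and 7.75 CPM in DProP libraries and 7.34 and 7.06 CPM in DPP libraries. Of 12 endothelial markers, 2 had no count, PECAM1 and ERG. CLDN5, another endothelial marker, had 10.3 and 11.7 CPM in DProP libraries and 13.5 and 6.18 CPM in DPP libraries.

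At an adjusted p under 0.05 (edgeR's quasi-likelihood test with Benjamini-Hochberg adjustment over all genes tested), 51 of 19465 genes differed, which is 0.262%. Of these, 23 were higher in DProP libraries (0.118% of the genes tested) and 28 were lower (0.144%). The smallest adjusted p was 0.00209. The groups did not overlap in any of the 51, as was also so for 43.8% of all genes tested. All but 2 of the 51 were protein-coding, 23 passed a 2-fold difference, and 9 differed by less than 0.5 on the log2 scale. At an unadjusted p under 0.05 there were 1204 higher genes (6.19%) and 1147 lower genes (5.89%). The counts depend on the tool and the filter: DESeq2 called 216 higher and 184 lower genes, and a filter of 1 CPM in 2 libraries gave 85 and 61. They also rest on single libraries: without DPP library 2 there were 2 higher and 5 lower genes, without DProP library 2 there were 7 and 12, without DProP library 1 there were 64 and 16, and without DPP library 1 there were 97 and 39. HBEGF, NIBAN2, FPGT-TNNI3K and LOC107985405 passed in all 4 of these fits. Set against vehicle, 6266 genes differed in DProP libraries (32.2%) and 7049 in DPP libraries (36.2%), in comparisons that share the vehicle libraries, which stand apart as described above. DEP differed from DPP in 2.93% of genes and DProP from DEP in 0.524%.

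**Figure D1:**
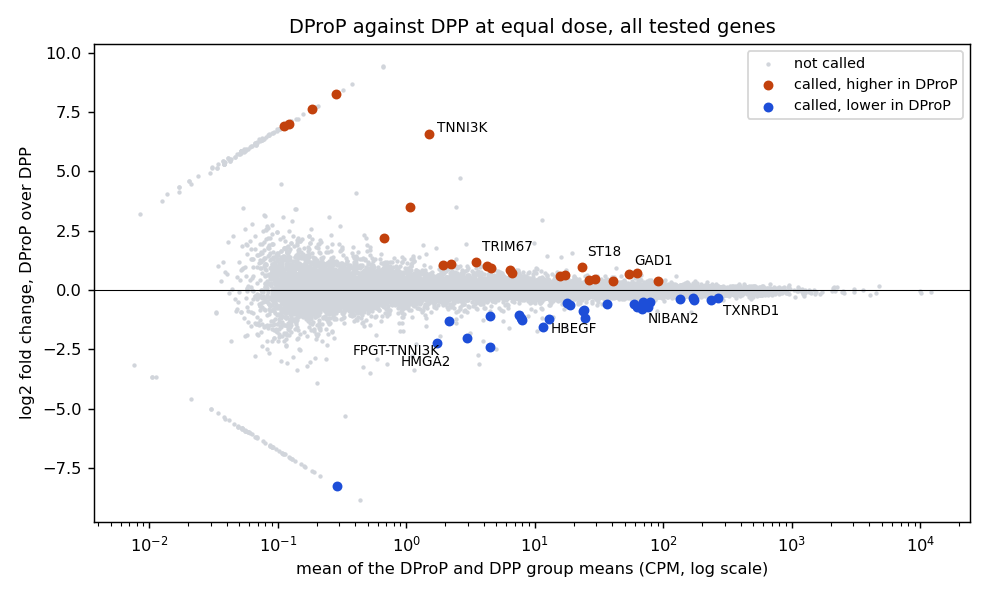
Each point is 1 of the 19465 genes tested, with the mean of the DProP and DPP group means (CPM, log scale) on the x axis and the log2 fold change of DProP over DPP on the y axis. The 51 called genes are coloured, 23 above and 28 below 0, and the straight streaks at low CPM are genes with no count in 1 of the groups.

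The genes lower in DProP libraries included a ligand of EGFR and products of the immediate early response. HBEGF, a membrane-anchored ligand of EGFR (chr5:140332843-140346603, GRCh38), had 6.04 and 5.77 CPM in DProP libraries, against 18 and 16.6 CPM in DPP libraries. Both DProP libraries thus lay far below both DPP libraries, with a log2 fold change of -1.55 ± 0.141 (SE; adjusted p = 0.00209). The DEP libraries had 7.56 and 6.18 CPM and the vehicle libraries 5.68 and 4.52 CPM, and the DPP libraries were the highest of the 10. Leaving out each of the 4 libraries in turn gave an adjusted p of at most 0.01 for HBEGF.

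Of 28 immediate early and AP-1 genes, 27 were tested, 4 were lower in DProP libraries and 0 were higher. EGR2, a zinc-finger transcription factor (chr10:62811996-62819167), had 7.37 and 8.13 CPM in DProP libraries and 16.4 and 19.5 CPM in DPP libraries, a log2 fold change of -1.21 ± 0.148 (adjusted p = 0.00897). FOSL1, which encodes the AP-1 subunit FRA-1, had 4.72 and 5.01 CPM in DProP libraries and 8.83 and 11.4 CPM in DPP libraries (adjusted p = 0.0323). Both genes were lowest in vehicle libraries, at 2.85 and 3.85 CPM for EGR2 and 1.63 and 2.11 CPM for FOSL1. JUN, the other AP-1 subunit that passed, had 192 and 205 CPM in DProP libraries and 257 and 276 CPM in DPP libraries (adjusted p = 0.0323). IER3, an early response gene that affects cell survival, had 16.7 and 17.8 CPM in DProP libraries and 30.0 and 31.6 CPM in DPP libraries (adjusted p = 0.0204). Over the 27 genes the median log2 fold change was -0.26, against 0.00 over all genes tested, and 15 were lower at an unadjusted p under 0.05. Of all genes tested, 5.89% were lower at that unadjusted threshold and 0.144% were called lower. Without DPP library 2 none of the list passed the adjusted threshold, without either DProP library 1 gene did, and the median then lay between -0.27 and -0.23. FOS itself did not pass, with 65.3 and 66.7 CPM in DProP libraries, 84.1 and 76.6 CPM in DPP libraries and a 95% interval of -0.51 to -0.06.

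In a list of ligands, phosphatases and other feedback genes of the EGFR and MAPK pathway, HBEGF was the 1 called gene among 23 tested. The list also holds the cytokine gene IL11. The median log2 fold change of these 23 genes was -0.19. At an unadjusted p under 0.05, 10 were lower and 0 higher, against 5.89% and 6.19% of all genes tested. DUSP4, a phosphatase that inactivates MAP kinases, lay just outside the threshold, with 4.86 and 5.70 CPM in DProP libraries and 8.87 and 11.6 CPM in DPP libraries (adjusted p = 0.0515). IL11, a cytokine of the interleukin-6 family, had 0.894 and 0.970 CPM in DProP libraries and 7.42 and 5.16 CPM in DPP libraries, a log2 fold change of -2.75 ± 0.653 (adjusted p = 0.165). LIF, another cytokine of that family, had 12.4 and 13.6 CPM in DProP libraries and 20.0 and 19.2 CPM in DPP libraries (adjusted p = 0.0763). These 3 genes did not pass the adjusted threshold. They did not overlap between the groups, as was also so for 43.8% of all genes tested (21.8% lower in DProP libraries).

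Further called genes outside these lists were lower in DProP libraries, and those named next had log2 fold changes of -1.26 to -0.40. NIBAN2, a cytoplasmic protein phosphorylated downstream of MAPK in human cells (chr9:127505343-127579031), had 46.3 and 53.3 CPM in DProP libraries and 86.8 and 85.8 CPM in DPP libraries, with a log2 fold change of -0.79 ± 0.075 (adjusted p = 0.00209). Its vehicle libraries were lower than both groups, at 28.1 and 29.9 CPM, and its highest adjusted p was 0.0162 when any 1 of the 4 libraries was left out. EMP1, a tetraspan membrane protein, had 45.7 and 48.2 CPM in DProP libraries and 83.0 and 71.6 CPM in DPP libraries (adjusted p = 0.0204). RGS4, which shortens signalling by G proteins, had 13.3 and 16.9 CPM in DProP libraries and 31.8 and 36.6 CPM in DPP libraries (log2 fold change -1.18 ± 0.160, adjusted p = 0.0154). For RGS4 the DEP libraries had 12.9 and 11.9 CPM and the vehicle libraries 4.80 and 3.71 CPM. SLC12A8, a solute carrier, had 4.56 and 4.88 CPM in DProP libraries and 11.4 and 11.2 CPM in DPP libraries (adjusted p = 0.00897). CSRNP1, TMEM158, SULF2, B4GALT5 and RNF145 had log2 fold changes of -0.64 to -0.40. SULF2 removes sulfate groups from heparan sulfate outside the cell, and B4GALT5 makes lactosylceramide. Of the genes in this paragraph, B4GALT5 passed in none of the 4 fits that left out a library, NIBAN2 in all, and the others in 1 to 3.

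**Figure D2:**
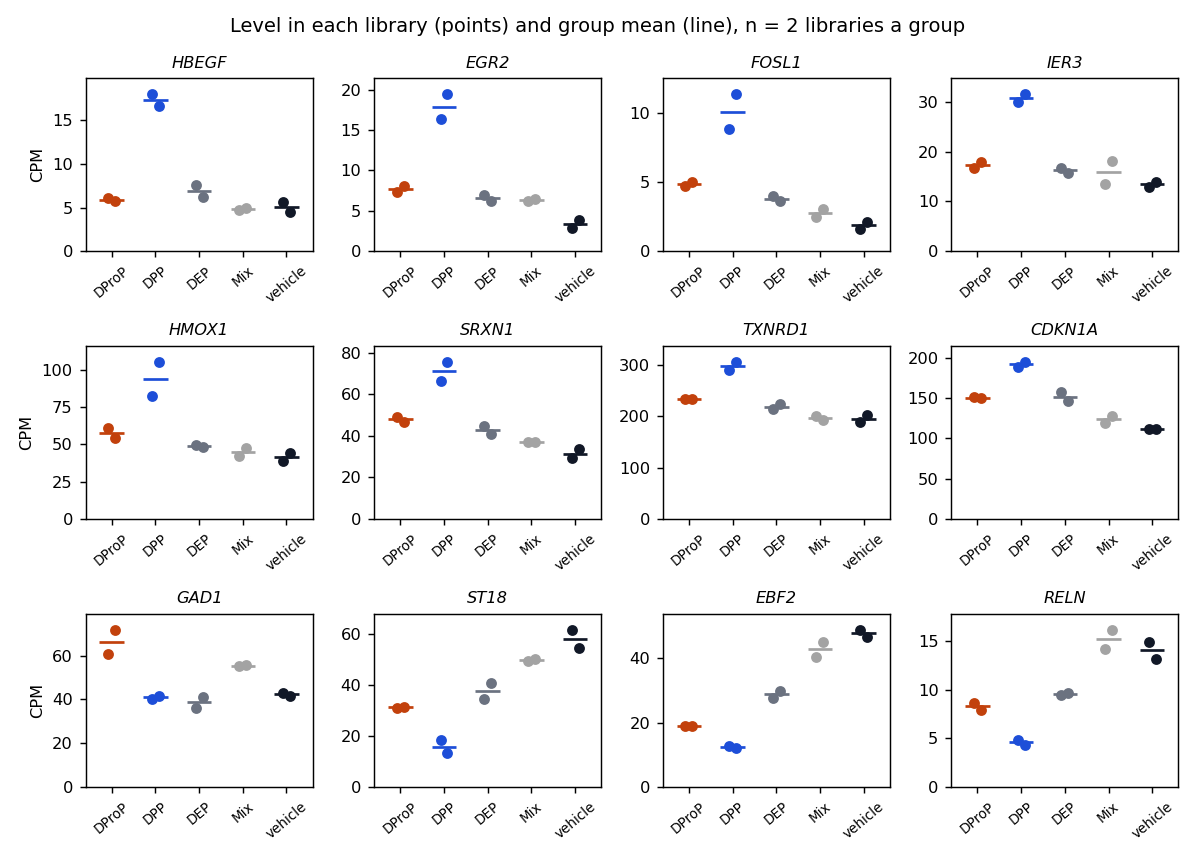
CPM of 12 called genes in every library, with DProP, DPP, DEP, Mix and vehicle from left to right, a point for each library and a line at the group mean. HBEGF and IER3 were highest in DPP libraries, at 18 and 16.6 CPM for HBEGF, whereas EBF2, ST18 and RELN were lowest in DPP libraries and GAD1 was highest in DProP libraries.

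INHBA, HMGA2 and ITGB3, and a pair of cyclin-dependent kinase inhibitors, were also lower in DProP libraries. INHBA, the beta A subunit of activin, had 2.80 and 2.90 CPM in DProP libraries and 5.87 and 6.37 CPM in DPP libraries (adjusted p = 0.0324). INHBA belongs to a list of 26 tested genes of transforming growth factor beta (TGF-beta) and BMP signalling, of which 2 were called lower. Of all genes tested, 0.144% were called lower. The list's median log2 fold change was -0.01, near the 0.00 of all genes. In the list, 3 genes were higher and 4 lower at an unadjusted p under 0.05, against 6.19% and 5.89% of all genes tested. HMGA2, a chromatin protein of fetal progenitors, had 1.23 and 1.13 CPM in DProP libraries and 3.66 and 5.91 CPM in DPP libraries (log2 fold change -2.01 ± 0.253, adjusted p = 0.00897). ITGB3, an integrin subunit that binds vitronectin, had 1.35 and 1.12 CPM in DProP libraries and 2.62 and 3.50 CPM in DPP libraries (adjusted p = 0.0497). For INHBA, HMGA2 and ITGB3 both DPP libraries lay above every DEP and vehicle library, which had for example 2.99, 2.05, 2.74 and 2.45 CPM of INHBA. Without DPP library 2 these 3 genes had adjusted p-values of 0.211, 0.0773 and 0.255, and without DProP library 2 they had 0.0671 or more. Without DProP library 1, INHBA and ITGB3 had 0.0865 and 0.0788.

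CDKN2B, which encodes the cyclin-dependent kinase inhibitor p15, had 4.96 and 4.70 CPM in DProP libraries and 9.70 and 12 CPM in DPP libraries (log2 fold change -1.17 ± 0.147, adjusted p = 0.00897). CDKN1A, which encodes p21 and is induced by p53, had 151 and 149 CPM in DProP libraries and 189 and 195 CPM in DPP libraries (log2 fold change -0.35 ± 0.059, adjusted p = 0.0336). CDKN1A was the called gene among 23 p53 targets, whose median was -0.13, while 0.144% of all genes tested were called lower. Of the 23 targets, 8 were lower and 1 higher at an unadjusted p under 0.05, against 5.89% and 6.19% of all genes tested. GDF15, a stress-induced cytokine in that list, missed the threshold with 9.04 and 8.25 CPM in DProP libraries and 15.9 and 22 CPM in DPP libraries (adjusted p = 0.0504). Both groups of GDF15 lay above the vehicle libraries, which had 2.08 and 1.46 CPM. Left-out libraries ended the call of CDKN1A in 3 fits (adjusted p of 0.0955 without DProP library 1, 0.186 without DProP library 2 and 0.232 without DPP library 2) and that of CDKN2B in 2 (0.0601 without DProP library 2 and 0.0816 without DPP library 2).

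Some antioxidant genes regulated by NFE2L2 were lower in DProP libraries, and the calls rested on single libraries. Of 21 tested, 4 were called lower and 0 higher, against 0.144% and 0.118% of all genes tested. At an unadjusted p under 0.05, 13 were lower and 1 higher, against 5.89% and 6.19% of all genes tested. The median log2 fold change was -0.23. HMOX1, which degrades heme, had 61.0 and 54.5 CPM in DProP libraries and 82.7 and 105 CPM in DPP libraries (log2 fold change -0.70 ± 0.114, adjusted p = 0.0357). SRXN1, which repairs oxidised peroxiredoxins, had 48.9 and 46.8 CPM in DProP libraries and 66.4 and 75.5 CPM in DPP libraries (adjusted p = 0.0259). TXNRD1, the cytosolic thioredoxin reductase (chr12:104215779-104350307), had 234 and 233 CPM in DProP libraries and 289.7 and 306 CPM in DPP libraries (log2 fold change -0.35 ± 0.0587, adjusted p = 0.0329). For HMOX1, SRXN1 and TXNRD1 the vehicle libraries lay below both groups, for example at 29.2 and 33.7 CPM for SRXN1. NQO1, an NFE2L2 target often used as a reporter of the pathway, did not pass, with 171 and 166 CPM in DProP libraries, 183 and 207 CPM in DPP libraries and an interval of -0.37 to -0.05. Without DPP library 2 or without DProP library 2 none of the list was called, without DProP library 1 there were 2, and the median without DPP library 2 was -0.13.

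MT1X, a metallothionein that binds zinc and copper, had 17.4 and 15.9 CPM in DProP libraries and 30.0 and 31.7 CPM in DPP libraries (log2 fold change -0.89 ± 0.115, adjusted p = 0.0105). DEP libraries were close to DPP libraries for this gene, at 27.1 and 26.4 CPM, and differed from DProP libraries with an adjusted p of 0.0258. Vehicle libraries had 11.2 and 14.1 CPM of MT1X. MT2A, the most abundant metallothionein here, had 118 and 107 CPM in DProP libraries and 189.6 and 237 CPM in DPP libraries but did not pass (adjusted p = 0.101). Of 8 metallothioneins tested, MT1X was the 1 called, and the median was -0.61, while 0.144% of all genes tested were called lower. Of these 8, 4 were lower and 1 higher at an unadjusted p under 0.05, against 5.89% and 6.19% of all genes tested. Metallothionein genes are near-identical copies, so reads may be split between them and these values are uncertain. MT1X passed without DProP library 1 and without DPP library 1, and had an adjusted p of 0.0765 without DProP library 2 and 0.0816 without DPP library 2. Of 25 heat shock genes and chaperones, edgeR and limma-voom called 0 and DESeq2 called 3 lower. In edgeR 9 were lower and 0 higher at an unadjusted p under 0.05, against 5.89% and 6.19% of all genes tested. DNAJB1, a co-chaperone, had 44.3 and 41.1 CPM in DProP libraries and 57.0 and 55.4 CPM in DPP libraries (adjusted p = 0.0625).

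Promoters of the called genes were searched, since AP-1 genes and NFE2L2 targets were among the lower ones. RefSeq (GRCh38.p14) gave the 250 bases before 1 start site per gene for 37 of the 51 genes, 20 lower and 17 higher. That site is the first base of the gene's full span in 19 of the 37 and lies inside the span, as an internal transcript start, in the other 18. The letters TGANTCA, a loose AP-1 site with any middle base, were on either strand of 2 of the 20 lower genes (10%). They were in 1 of the 17 higher genes (5.88%), against 4.69% of 19279 promoters of tested genes. The lower genes EMP1 and NIBAN2 each had TGAGTCA and TGATTCA, and the higher gene, TRIM67, had TGATTCA only. The core of the antioxidant response element that NFE2L2 binds, TGACNNNGC, was in 5 of the 20 lower genes (25%) and 0 of the 17 higher ones, against 11.5% of tested genes. The CArG box, which serum response factor binds, was in 1 of the 20 lower genes (5%) and 0 of the higher ones, against 1.12%. A site can match both the AP-1 letters and the antioxidant core. Matches are letters in a window and say nothing of binding. The windows of 4 lower genes that hold such letters are shown from 5′ to 3′ on the gene's strand, with the matches in capitals. EMP1 lies on the plus strand (chr12:13196476-13196725) and has AP-1 letters starting 175 and 48 bases before the start site, which is the first base of the gene. NIBAN2, on the minus strand (chr9:127579032-127579281), has AP-1 letters at 197 and 134 bases and an antioxidant core at 157 bases before the first base of the gene. EGR2, on the minus strand (chr10:62816367-62816616), has a CArG box at 71 bases and an antioxidant core at 58 bases before an internal start site, 2801 bases into the gene's full span. TXNRD1, on the plus strand (chr12:104286782-104287031), has an antioxidant core at 102 bases before an internal start site, 71253 bases into the gene's full span.
EMP1: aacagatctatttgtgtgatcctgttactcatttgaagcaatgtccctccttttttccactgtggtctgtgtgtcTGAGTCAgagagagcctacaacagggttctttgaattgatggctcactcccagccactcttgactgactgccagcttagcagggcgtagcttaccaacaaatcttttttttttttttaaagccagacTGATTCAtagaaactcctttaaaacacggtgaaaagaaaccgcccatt
NIBAN2: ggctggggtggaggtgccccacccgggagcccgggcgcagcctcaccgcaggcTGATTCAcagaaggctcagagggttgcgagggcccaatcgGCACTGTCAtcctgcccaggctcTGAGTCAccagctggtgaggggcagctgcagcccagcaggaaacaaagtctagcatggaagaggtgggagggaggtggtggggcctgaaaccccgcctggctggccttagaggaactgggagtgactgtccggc
EGR2: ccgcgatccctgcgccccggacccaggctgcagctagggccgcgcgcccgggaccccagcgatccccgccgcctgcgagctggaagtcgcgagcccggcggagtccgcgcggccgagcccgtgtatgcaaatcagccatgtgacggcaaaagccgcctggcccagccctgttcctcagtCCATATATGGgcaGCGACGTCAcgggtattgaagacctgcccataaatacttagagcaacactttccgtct
TXNRD1: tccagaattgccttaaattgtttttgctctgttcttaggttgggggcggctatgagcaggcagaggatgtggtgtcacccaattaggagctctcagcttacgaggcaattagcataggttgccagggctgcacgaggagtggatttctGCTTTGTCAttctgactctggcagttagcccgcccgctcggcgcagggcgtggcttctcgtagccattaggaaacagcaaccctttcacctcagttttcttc

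Genes of neurons and their precursors were among those higher in DProP libraries. GAD1, which makes the transmitter GABA (chr2:170813210-170861151), had 60.7 and 71.8 CPM in DProP libraries, against 40.2 and 41.6 CPM in DPP libraries. Its log2 fold change was 0.70 ± 0.0864 (adjusted p = 0.00897). The DPP libraries were at the level of DEP libraries (36.2 and 41.1 CPM) and vehicle libraries (43.0 and 41.5 CPM), and DProP libraries stood above vehicle by 0.65 on the log2 scale (adjusted p = 0.000245). Mix libraries also lay above the vehicle libraries, at 55.1 and 55.5 CPM, and below both DProP libraries. Of 43 synaptic genes tested, 11 were higher and 2 lower at an unadjusted p under 0.05, against 6.19% and 5.89% of all genes tested. At the adjusted threshold, 0.118% of all genes tested were called higher. GAD1 was the called gene among 43 synaptic genes, whose median was 0.09, and it had an adjusted p of 0.069 without DPP library 2.

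A pair of transcription factors of the proneural list passed, both higher in DProP libraries, of 25 tested. ST18, a zinc-finger factor of the MYT1 family, had 30.7 and 31.3 CPM in DProP libraries and 18.1 and 13.2 CPM in DPP libraries (log2 fold change 0.99 ± 0.133, adjusted p = 0.0179). EBF2, a helix-loop-helix factor of differentiating neurons, had 18.8 and 18.9 CPM in DProP libraries and 12.7 and 12.1 CPM in DPP libraries (log2 fold change 0.61 ± 0.0827, adjusted p = 0.0146). Both groups lay below every DEP, Mix and vehicle library for these genes: EBF2 was at 27.8 and 29.9 CPM in DEP libraries and at 49.0 and 46.7 CPM in vehicle libraries. In bulk RNA, fewer cells of a type and less RNA per cell cannot be told apart. The list had a median log2 fold change of 0.38, with 9 higher and 1 lower at an unadjusted p under 0.05. Of all genes tested, 6.19% were higher and 5.89% lower at that unadjusted threshold, and 0.118% were called higher. MYT1, EBF3, NHLH2 and NEUROD1, further neuronal transcription factors, had differences of 0.60 to 0.95 that did not pass (adjusted p of 0.0607 to 0.0922). Without DPP library 2 none of the list was called and its median was 0.18, without DProP library 2 there was 1 called gene with a median of 0.26, and without DPP library 1 there were 5 with a median of 0.65.

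General neuronal markers did not pass: of 31 tested, 0 were called by edgeR, and the median was 0.14. At an unadjusted p under 0.05, 13 of the markers were higher and 3 lower, against 6.19% and 5.89% of all genes tested. DESeq2 called 7 of them higher and 1 lower, and limma-voom 0. Their summed level was 2806 and 2825 CPM in DProP libraries and 2775 and 2606 CPM in DPP libraries, against 4169 and 4149 CPM in vehicle libraries. STMN2, a microtubule regulator of growing axons, had 49.5 and 48.2 CPM in DProP libraries and 39.8 and 26.3 CPM in DPP libraries (adjusted p = 0.251). DCX, a microtubule protein of migrating neurons, had 90.0 and 87.5 CPM in DProP libraries and 78.3 and 55.3 CPM in DPP libraries (adjusted p = 0.251). In both genes DPP library 2 was far below DPP library 1. NEFL, the light neurofilament, ran the other way, with 23.7 and 22.7 CPM in DProP libraries and 29.6 and 34.3 CPM in DPP libraries (adjusted p = 0.0763).

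RELN, which encodes the secreted protein reelin that guides migrating neurons (chr7:103471789-103989658), had 8.64 and 7.94 CPM in DProP libraries and 4.83 and 4.3 CPM in DPP libraries (log2 fold change 0.86 ± 0.120, adjusted p = 0.0154). DEP libraries had 9.41 and 9.65 CPM and vehicle libraries 14.9 and 13.2 CPM of RELN, so that its lowest level was in DPP libraries. RELN and ITGB3 were the called genes among 54 of the migration, adhesion and matrix list, whose median was 0.01. Of all genes tested, 0.118% were called higher and 0.144% lower. In the list, 6 genes were higher and 13 lower at an unadjusted p under 0.05, against 6.19% and 5.89% of all genes tested. TMEM132B, a transmembrane protein, had 74.3 and 80.3 CPM in DProP libraries and 49.2 and 45.8 CPM in DPP libraries (log2 fold change 0.70 ± 0.0844, adjusted p = 0.00897). Its DEP libraries (65.2 and 78.5 CPM) and vehicle libraries (77.9 and 75.0 CPM) lay near the DProP level, and its Mix libraries were higher, at 130.4 and 133 CPM. ANK3, the ankyrin of the axon initial segment, had 49.0 and 43.3 CPM in DProP libraries and 35.3 and 35.2 CPM in DPP libraries (log2 fold change 0.39 ± 0.070, adjusted p = 0.0497). TRIM67, a ubiquitin ligase of the nervous system, had 4.52 and 5.23 CPM in DProP libraries and 2.57 and 1.71 CPM in DPP libraries (adjusted p = 0.0320). GPRIN3, ADAP1, FAM71F1, ZNF469, SAMD11, RNF144A, EPB41, CBFA2T2 and PCDHGA10 were called too, at 0.39 to 2.21 on the log2 scale. PCDHGA10 shares its last exons with other genes of the gamma protocadherin cluster, so its value is uncertain. Without DPP library 2 none of the genes in this paragraph passed, with an adjusted p of 0.0783 for TMEM132B and 0.135 for RELN, and without DProP library 2 only RELN and TMEM132B did (0.0489 each).

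**Figure D3:**
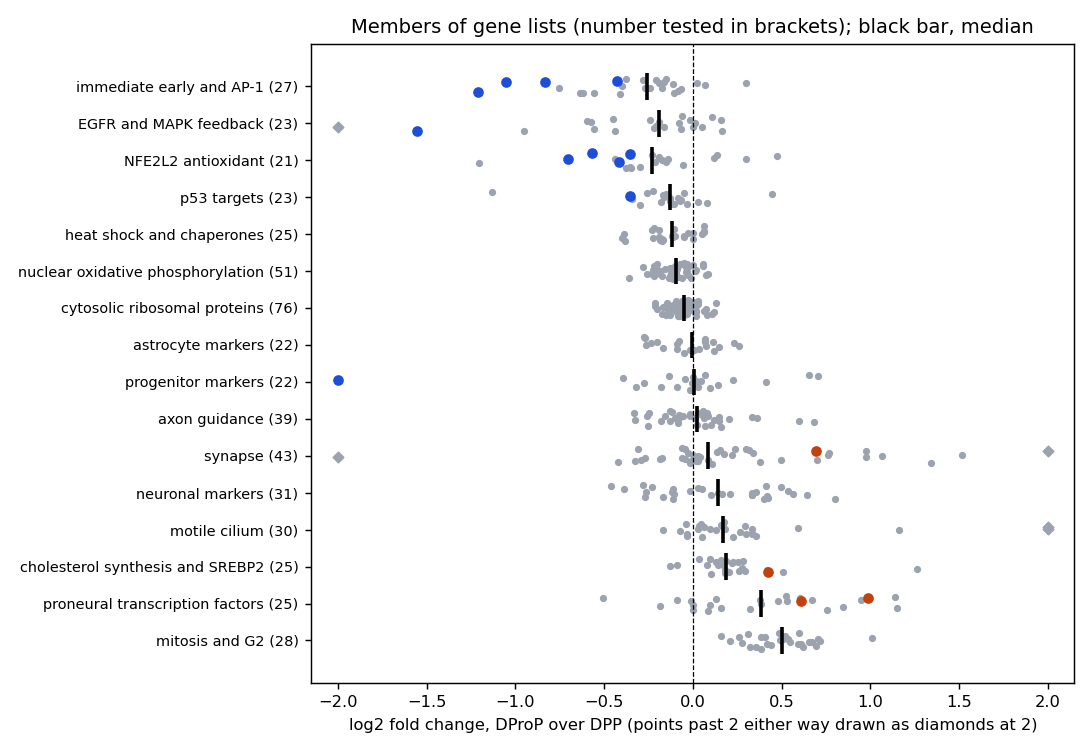
Log2 fold change of DProP over DPP for the tested members of 16 gene lists, with a point for each gene, a black bar at the list's median and a dashed line at the median of all genes. Called genes are blue where lower and orange where higher in DProP libraries: 4 in the immediate early list (median -0.26), 4 in the NFE2L2 list (median -0.23) and 2 in the proneural list (median 0.38).

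Cholesterol synthesis genes had mostly positive log2 fold changes, with 1 called. Of 25 tested, HSD17B7 was called, and 23 had a positive log2 fold change, against 50.5% of all genes. At an unadjusted p under 0.05, 16 were higher and 0 lower, against 6.19% and 5.89% of all genes tested. HSD17B7, a ketosteroid reductase of the pathway, had 30.6 and 30.0 CPM in DProP libraries and 22.4 and 22.8 CPM in DPP libraries (log2 fold change 0.42 ± 0.0753, adjusted p = 0.0497). LSS, which closes the sterol rings, had 264 and 257 CPM in DProP libraries and 218 and 219 CPM in DPP libraries (adjusted p = 0.0763). For both genes the DEP and vehicle libraries lay below both groups, at 19.1 and 20.4 CPM and at 18.5 and 17.9 CPM for HSD17B7. The median of the list was 0.19 and stayed between 0.17 and 0.24 when each library was left out, but HSD17B7 passed in none of those 4 fits (adjusted p of 0.100 to 0.211). RNF145, an endoplasmic reticulum ubiquitin ligase that takes part in sterol homeostasis, was lower in DProP libraries, with 63.5 and 65.5 CPM, against 90.6 and 93.4 CPM in DPP libraries (log2 fold change -0.51 ± 0.0713, adjusted p = 0.0154). RNF145 passed without DPP library 1 only, with 0.056 without DProP library 1, 0.0765 without DProP library 2 and 0.115 without DPP library 2.

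At 2 read-through loci single genes passed the threshold while the summed counts of the overlapping genes did not. TNNI3K, a cardiac kinase gene (chr1:74235387-74544428), had 178 and 216 counts in DProP libraries, against 0 and 4 in DPP libraries, and at most 5 in any other library. FPGT-TNNI3K, the read-through gene that covers the same bases, had 31 and 50 counts in DProP libraries and 227 and 170 in DPP libraries. When the counts of both genes were summed, DProP libraries had 209 and 266 and DPP libraries 227 and 174, and the log2 fold change was 0.30 ± 0.176 (adjusted p = 0.541). SETDB2-PHF11, another read-through gene, had 91 and 176 counts in DProP libraries and 21 and 3 in DPP libraries, and its sum with SETDB2 and PHF11 did not pass (log2 fold change 0.19 ± 0.0836, adjusted p = 0.405). The sources used here do not say how reads of overlapping genes were assigned. With the genes summed, 15 genes were called higher and 26 lower.

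Some called genes had no count in one of the groups. LOC107985405 (41 and 33 counts), MYLK2 (25 and 23), ADGRD2 (20 and 11) and SCNN1G (12 and 18) had counts in DProP libraries and none in DPP libraries. Set against a floor of 3 counts over both DPP libraries together, they were at least 25.6-fold, 16.6-fold, 10.7-fold and 10.4-fold higher in DProP libraries. Each of these genes also had counts in every DEP, Mix and vehicle library, for example 59 and 58 of ADGRD2 in vehicle libraries. The log2 fold changes of DProP over vehicle were 0.08, -0.43, -2.03 and -0.31, in the same order. TNFAIP8L2, a regulator of immune signalling, had 0 counts in DProP libraries, against 36 and 43 in DPP libraries, and was at least 25.3-fold lower in DProP libraries. It had 0.461 and 0.439 CPM in DEP libraries and 0 in vehicle libraries. These 5 genes were below 1 CPM in every DProP and DPP library, and MYLK2 and SCNN1G passed in none of the fits that left out a library. TALAM1, an antisense RNA of the MALAT1 locus, was lower in DProP libraries (27.7 and 30.2 CPM) than in DPP libraries (41.9 and 45.4 CPM; adjusted p = 0.0310), and without a stated strand setting its reads cannot be told apart from those of MALAT1.

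Cell-cycle genes separated the DProP libraries from each other more than DProP from DPP. All 28 mitosis and G2 genes had a positive log2 fold change, with a median of 0.50. However, edgeR and limma-voom called 0 and DESeq2 called 1. In edgeR 4 were higher at an unadjusted p under 0.05, against 6.19% of all genes tested. MKI67, a marker of cycling cells, had 42.7 and 119 CPM in DProP libraries, against 47.5 and 58.0 CPM in DPP libraries. TOP2A, a topoisomerase of dividing cells, had 20.4 and 52.9 CPM in DProP libraries and 27.5 and 26.7 CPM in DPP libraries. DProP library 2 was thus the high one, while DProP library 1 lay at or below the DPP libraries in both genes. Without DProP library 2 the median was -0.26 and 0 genes were called, and without DProP library 1 it was 0.95 with 13 called. Histone genes expressed in S phase had the same order, with mean centred log2 levels of -0.15 and 0.80 in DProP libraries and 0.08 and 0.15 in DPP libraries.

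**Figure D4:**
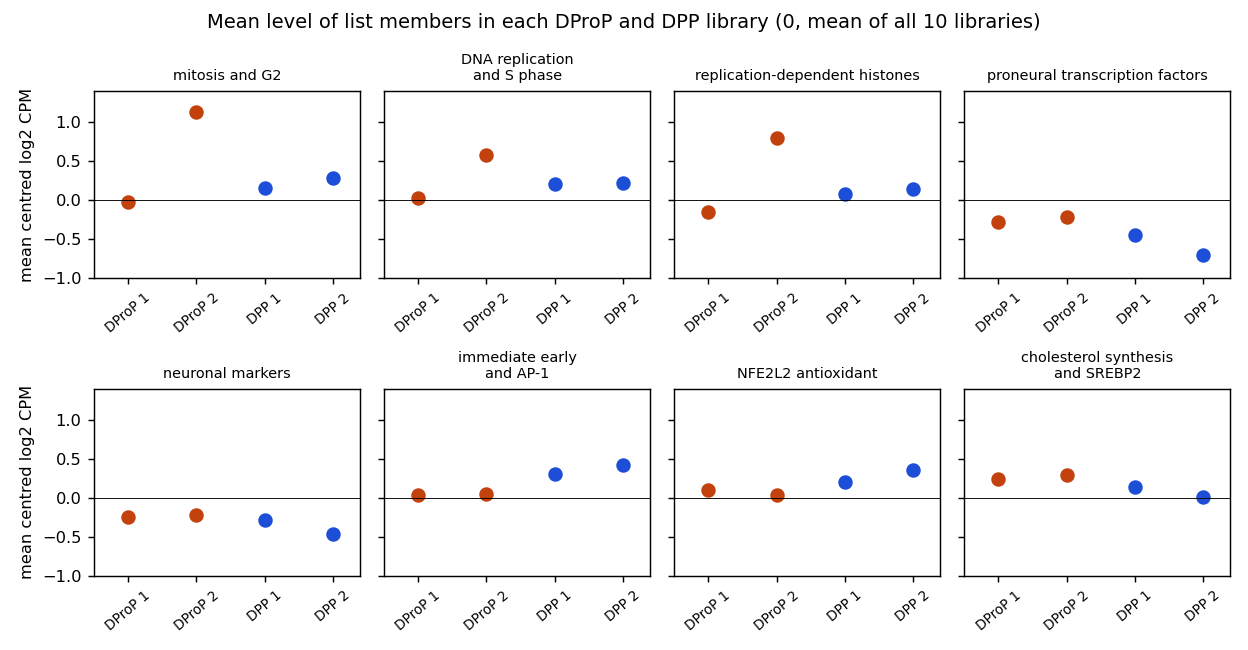
Mean log2 CPM of each list's members, centred on the mean of all 10 libraries, in DProP libraries 1 and 2 (orange) and DPP libraries 1 and 2 (blue). Cell-cycle lists differed between the DProP libraries (-0.02 and 1.13 for mitosis and G2), whereas the immediate early, NFE2L2 and proneural lists put both DProP libraries on 1 side of both DPP libraries.

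Most genes had intervals that covered only small differences between the compounds. The 95% interval of the log2 fold change reached 0.26 to each side in the median gene. It stayed within a 2-fold difference in 14318 genes (73.6%) and within 0.5 on the log2 scale in 10989 genes (56.5%). All 51 nuclear genes of oxidative phosphorylation and all 76 cytosolic ribosomal protein genes stayed within 2-fold, with medians of -0.09 and -0.05. Most leaned the same way, with 43 of the 51 and 57 of the 76 below 0, while 50.5% of all genes were above 0. In the first list 9 were lower and in the second 5, with 0 higher in either, at an unadjusted p under 0.05. Of all genes tested, 5.89% were lower and 6.19% higher at that threshold. SOX2 had an interval of -0.19 to 0.10 and VIM (vimentin, a filament of progenitors) of -0.15 to 0.15. GFAP had an interval of -0.25 to 0.09 and the neuronal microtubule gene MAP2 of -0.03 to 0.23. Other progenitor markers had intervals without 0, for example -0.30 to -0.05 for NES and 0.37 to 1.05 for PROM1. Of 22 progenitor markers tested, 1 was called lower (HMGA2), against 0.144% of all genes tested. Of the same 22, 3 were higher and 5 lower at an unadjusted p under 0.05, against 6.19% and 5.89%. Astrocyte markers had a median of 0.00, with 0 of 22 called (DESeq2 1 lower, limma-voom 0) and all 22 intervals within 2-fold. At an unadjusted p under 0.05, 3 were lower and 0 higher, against 5.89% and 6.19% of all genes tested. Of the 42 gene lists, 12 held a called gene and 30 held none, and 20 of the 51 called genes were in a list.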

How the data were processed

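RNA was sequenced from 10 libraries in 5 groups of 2. The authors deposited whole-number read counts for each gene, with no scaling or filter. The submitters' processing notes name the build GRCh38, HISAT2 2.1.0 and StringTie 2.1.3b, with Trimmomatic 0.38 and FastQC, and R 4.3.2 with edgeR 4.0.9. The sources used here do not give the program that counted, the annotation, the strand setting or how multiply mapped reads were treated.

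The test was edgeR 4.0.16 under R 4.3.3. Genes were kept by group (filterByExpr), libraries were scaled by TMM, and all 10 libraries entered a robust quasi-likelihood fit with 1 mean per group (5 residual degrees of freedom, common biological coefficient of variation 9.40%). The fold change is DProP over DPP, in 1 pair of compounds. A standard error is the log2 fold change divided by the square root of F. Exact permutation of 2 against 2 libraries cannot reach 0.05, so p-values rest on the spread pooled over groups. A floor is 3 counts over the 2 libraries of a group together and covers counting error only. Of the gene identifiers, 44698 matched RefSeq.

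The members and the 42 gene lists were chosen with earlier results of these data known. The rule for named genes took the 12 largest changes each way past the threshold with a mean of at least 1 CPM and no overlap, up to 6 members of each list, and defining markers. It gave 33 of the 51 called genes, and those of the others that are named, with FOS, NQO1, STMN2, MKI67 and TOP2A, were named after their values were seen. Some called genes are counted but not reported here by name.

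Tried instead were DESeq2 1.42.0, limma-voom (limma 3.58.1), scaling by relative log expression or by library size, dropping the filter or raising it to 1 CPM in 2 libraries, fewer groups in the fit, a replicate block, a 2-fold minimum and leaving out each library, which assumes that the lone library varies like the other groups. The fit was tested on simulated data with known changes.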

Additional observations from a re-analysis of the deposited data

How the results depend on the processing

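The 23 genes higher and 28 lower in DProP libraries depended on the setting. Library size alone gave 36 higher genes, no filter 37, limma-voom 11, and the stricter filter 85 higher and 61 lower. DESeq2 gave 216 higher and 184 lower genes, with 45 of the 51 among them. The 4 DProP and DPP libraries alone gave 4 and 13, the fit without both vehicle libraries 44 lower genes, and a 2-fold minimum 1 and 0 (149 genes at an unadjusted p under 0.05). Leaving out 1 library gave 2 to 97 higher and 5 to 39 lower genes, the fewest without DPP library 2. Chosen after seeing the data, a fit without both DEP libraries gave 12 and 17, and summed read-through genes 15 higher genes. Fits without a library or group have fewer samples by construction, and otherwise the cause was not tested. Over all alternatives, 803 values of the called genes held 0 changes of sign, 527 stayed past the threshold and 276 did not.

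The labels' replicate numbers did not pair libraries: across genes, deviations of same-numbered libraries correlated from -0.151 to 0.111 in 10 pairs of groups, and the value was -0.0114 for DProP and DPP. The labels share only a number. With the replicate block 13 genes were higher and 23 lower.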
